A study of Homo sapiens with 37 samples.

Results

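The comparison described here sets irradiated human aortic endothelial cells (HAEC), the cells that line the aorta, against untreated HAEC. It takes the 5 HAEC libraries out of 37 in the series, and the libraries were chosen by their titles alone. The treated group, labelled HAEC IR+, holds 3 libraries of cells given 4 Gy of ionising radiation. The untreated group, labelled HAEC IR-, holds 2 libraries. All 5 were grown in the same endothelial growth medium. The labels do not state the time between irradiation and RNA extraction, the number of donors, or that replicates were separate cultures. What the p-values measure is therefore the scatter of 5 libraries, and part of it could be technical. The rest of the series holds umbilical vein endothelium (HUVEC) and fibroblasts brought to senescence, a lasting stop of cell division, by several routes. HUVEC given the same dose, 3 irradiated and 3 control libraries, serve below as the closest comparison. Genes of the usual senescence lists (cell cycle, p53 targets, histones, secreted cytokines, interferon response) are left aside in favour of endothelial biology.

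Resting endothelium keeps blood fluid, holds leukocytes off the vessel wall and sets vessel tone. It does so through adhesion molecules, a store of von Willebrand factor and P-selectin in Weibel-Palade bodies, clotting and fibrinolytic factors, prostaglandins, nitric oxide and endothelin. Arterial identity is kept by Notch, ephrin and connexin genes, and bone morphogenetic protein (BMP) and TGF-beta signals shape how endothelium responds to flow and injury. Ionising radiation is known to make endothelium adhesive for leukocytes and prone to clotting.

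Adhesion molecules were among the highest and matrix proteases among the lowest fold changes. Promoters were looked up for VCAM1, SELP, SELE, MMP1 and MMP10 only, and SELE was picked after its values were seen. Other such genes, among them ICAM1 and ADAMTS9, were not looked up. MMP1 had no entry in the RefSeq table (GRCh38.p14), and the others are shown for their binding motifs. Each line gives the 250 bases before the transcription start, 5′ to 3′ on the gene's strand. Capitals mark a match, on either strand, to the consensus of NF-kappaB, the main inflammatory transcription factor of endothelium, in VCAM1 and SELE, and to the AP-1 consensus TGANTCA in MMP10. SELP held neither.
VCAM1 (chr1:100719492-100719741, plus strand): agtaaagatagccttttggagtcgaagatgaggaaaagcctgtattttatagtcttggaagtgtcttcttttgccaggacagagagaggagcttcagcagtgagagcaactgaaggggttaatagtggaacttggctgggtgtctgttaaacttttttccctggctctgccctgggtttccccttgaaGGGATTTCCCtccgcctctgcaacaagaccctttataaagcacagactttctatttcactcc
SELE (chr1:169734080-169734329, minus strand): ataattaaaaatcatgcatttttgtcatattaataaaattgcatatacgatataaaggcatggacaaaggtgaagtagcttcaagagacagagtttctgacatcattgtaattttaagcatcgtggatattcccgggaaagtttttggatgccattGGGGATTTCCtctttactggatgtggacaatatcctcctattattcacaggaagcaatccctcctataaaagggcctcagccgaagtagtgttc
SELP (chr1:169630125-169630374, minus strand): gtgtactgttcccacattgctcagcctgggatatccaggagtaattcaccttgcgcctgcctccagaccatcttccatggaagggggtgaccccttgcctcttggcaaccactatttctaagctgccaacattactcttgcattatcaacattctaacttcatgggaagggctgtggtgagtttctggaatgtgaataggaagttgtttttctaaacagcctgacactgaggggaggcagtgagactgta
MMP10 (chr11:102780629-102780878, minus strand): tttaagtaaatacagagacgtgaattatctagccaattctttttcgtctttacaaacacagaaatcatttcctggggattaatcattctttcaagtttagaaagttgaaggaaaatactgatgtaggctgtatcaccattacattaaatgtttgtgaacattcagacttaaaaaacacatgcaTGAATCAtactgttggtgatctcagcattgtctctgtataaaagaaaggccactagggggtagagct
The match began 62 bases before the start in VCAM1, 94 in SELE and 67 in MMP10. Of 35116 promoter windows of this length, 5.21% held the NF-kappaB motif and 6.57% the AP-1 motif, and neither motif overlapped the other in these windows. A match describes the letters in the window and shows no binding.

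Library totals ran from 163513226 to 195250835 counts in irradiated HAEC, against 154765749 and 102293388 counts in control HAEC. Levels are read counts scaled to a common library total (CPM), so they can be compared between libraries for 1 gene, not between genes. Fold changes are log2 of irradiated over control ± standard error, and a gene is called where edgeR's quasi-likelihood test gave a Benjamini-Hochberg adjusted p below 0.05 over all 28024 genes tested. Replicates agreed closely (Pearson r of log2 CPM across genes 0.998, coefficient of variation 5.69%). The counting settings are not given, so reads of genes that overlap on opposite strands cannot be told apart. Of the genes named below this holds for ADAMTS18, ADAMTS9, ADAMTS9-AS1, ANGPT2, ANLN, CADM3-AS1, CCN2, CD44, CD68, CXCL16, EFNB2, ENO1, F2R, F8, FTH1, GALNT6, GAS6, GASK1B-AS1, HK2, HLA-DPB1, HMGA2, HSPG2, ICAM1, ICAM2, ID2, IGFBP7, ITGA6, ITGAV, ITGB8, KRT7, LINC00639, MAML2, MEG3, MEST, MGP, MMP1, MMP3, NID2, NOS3, PDE3A, PLA2G4C, PRSS3, TFPI2, TIMP2, TPM1, UBE2R2-AS1, VCAN and WTAPP1.

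Endothelial markers were present in every library. Their summed level over 17 genes was 2822 to 2932 CPM in irradiated and 2410 to 2418 CPM in control HAEC, and 10 of 17 were called higher and 3 lower. CDH5, the cadherin of endothelial junctions, stood at 463 to 505 CPM in irradiated and 393 to 399 CPM in control libraries. The leukocyte list (11 genes) summed to 8.10 to 9.27 CPM in irradiated and 11.3 to 11.6 CPM in control libraries, mostly CD68, a gene that shares sequence with others, while CD3E and ITGAM had no count. Of its 6 tested genes 2 were called higher (1 without control 1) and 1 lower, with a median log2 fold change of 0.98. Of the epithelial list (12 genes), CDH1, EPCAM and ESRP1 were at or near 0 throughout. Its sum of 1052 to 1069 CPM in irradiated and 467 to 489 CPM in control libraries was keratin, led by KRT7 (1.68 ± 0.03), and 4 of its 5 tested genes were called higher and 0 lower. Fibroblast markers (15 genes) summed to 309 to 322 CPM in irradiated and 229 to 239 CPM in control libraries, most of it FBN1 (270 to 277 CPM in irradiated and 177 to 185 CPM in control libraries), with 1 of 14 tested genes called higher and 4 lower, or 2 higher and 2 lower without control 1. Smooth muscle markers (11 genes) summed to 96.5 to 103 CPM in irradiated and 91.8 to 99.7 CPM in control libraries, with 2 of 10 called higher and 1 lower. Over all genes tested 19.7% were called higher and 19.9% lower, and the marker counts are to be read against those shares. The smooth muscle share called higher (20%) was near the first. The aortic label was not borne out as clearly, and it is taken from the titles. The arterial connexin GJA5 was not analysed here. Of the arterial genes described below, GJA4, SEMA3G and HEY1 stood below 1 CPM in every control library, while EFNB2 stood above 1 CPM. GJA4 was lower in control HAEC than in control HUVEC. NR2F2, a factor of veins, stood at 53.05 to 56.5 CPM in irradiated and 46.6 to 48.0 CPM in control libraries, and MMRN1, abundant in veins and lymphatics, at 3013 to 3145 CPM in irradiated and 2146 to 2157 CPM in control libraries. The part of these markers in the results below was not tested.

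Irradiation changed a large share of the transcriptome by modest amounts. Of 28024 genes, 5531 (19.7%) were called higher and 5587 (19.9%) lower, and the median over all genes was 0.01 on the log2 scale. At least a 2-fold change was called for 1345 genes upward (4.80%) and 920 downward (3.28%). In every fit with 1 library left out 7743 of the calls held, and 3375 were lost in at least 1. Without control 1, 5062 genes were called higher and 4758 lower. In a fit of all 37 libraries 2315 genes were called higher and 1627 lower.

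Among genes with an average log2 CPM of at least 1 that were called in every fit with 1 library left out, the 12 highest fold changes were those of GJA4, SULF1, VCAM1, SELP, GALNT15, MGARP, IL33, ABCA1, IFI44L, CADM3-AS1, FABP4 and BIRC3. The 12 lowest were those of WTAPP1, MMP1, ADTRP, PRSS3, MMP10, UBE2R2-AS1, ADAMTS9, MYEOV, RAB38, SHISA2, ADAMTS9-AS1 and PLAT. These include 3 pairs of overlapping neighbours whose reads may be shared, namely WTAPP1 with MMP1, UBE2R2-AS1 with PRSS3, and ADAMTS9-AS1 with ADAMTS9.

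**Figure D1:**
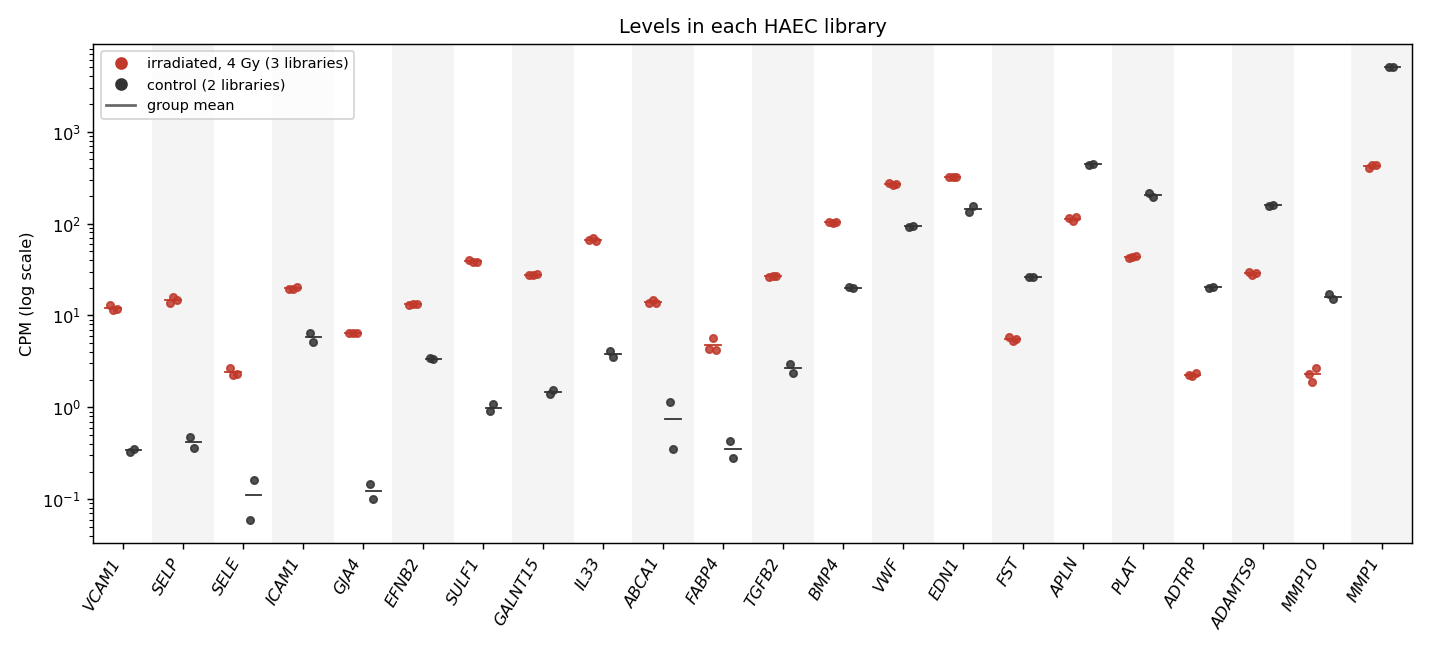
Levels of 22 named genes in each HAEC library, in CPM on a log axis, with irradiated libraries (red) left of control libraries (dark) and a bar at each group mean. The groups are apart for every gene shown, from VCAM1, at 11.4 to 12.9 CPM in irradiated and 0.329 to 0.352 CPM in control libraries, to MMP1, at 399 to 435 CPM in irradiated and 5005 to 5093 CPM in control libraries.

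Leukocyte adhesion genes moved in both directions. Of 19 tested, 10 were called higher and 8 lower, against 19.7% and 19.9% of all genes, with a median log2 fold change of 0.30. The counts of every list below are to be read against those 2 shares, and no list was tested as a set. VCAM1 (ENSG00000162692), which holds monocytes and lymphocytes on activated endothelium, had 12.9, 11.4 and 11.6 CPM in irradiated libraries, against 0.329 and 0.352 CPM in control libraries (5.14 ± 0.13). P-selectin (SELP, ENSG00000174175), which lets leukocytes roll, had 13.7, 16.01 and 14.6 CPM in irradiated libraries, against 0.474 and 0.362 CPM in control libraries (5.11 ± 0.12). The groups were far apart for both genes, and every control library stood below 1 CPM.

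E-selectin (SELE), made by inflamed endothelium, had 2.70, 2.24 and 2.28 CPM in irradiated libraries, against 0.0592 and 0.161 CPM in control libraries (4.56 ± 0.27). It was singled out after its values were seen, and its fold change moved to 3.90 without control 1 and 5.33 without control 2. ICAM1, the ligand of leukocyte beta-integrins, had 19.4, 19.6 and 20.5 CPM in irradiated libraries, against 6.41 and 5.15 CPM in control libraries (1.76 ± 0.08). CD34, a sialomucin of small vessels, stood at 1.23 ± 0.09. ICAM2, present on resting endothelium, had 172, 177 and 175 CPM in irradiated libraries, against 257 and 243 CPM in control libraries (-0.52 ± 0.03). PODXL, which gives the luminal surface its negative charge, had 52.8, 50.4 and 47.5 CPM in irradiated libraries, against 121 and 125 CPM in control libraries (-1.29 ± 0.04), and ESAM, a tight-junction immunoglobulin, changed by -0.46 ± 0.04. The calls of ICAM2 and ESAM were lost in the fit of all 37 libraries.

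Of 33 cytokines and receptors of the TNF family 18 were called higher and 7 lower, against 19.7% and 19.9% of all genes, with a median of 0.43. TNFSF10, the death ligand TRAIL, had 15.2, 14.6 and 14.1 CPM in irradiated libraries, against 1.47 and 2.12 CPM in control libraries (3.06 ± 0.11). TNFSF18, an endothelial ligand of T cells, changed by 1.25 ± 0.05. BIRC3, an inhibitor of apoptosis that the TNF pathway induces, had 8.42, 9.09 and 8.86 CPM in irradiated libraries, against 0.750 and 0.594 CPM in control libraries (3.68 ± 0.12). IL33, a nuclear alarmin of endothelium, reached 66.1, 69.9 and 64.9 CPM in irradiated libraries, against 4.15 and 3.54 CPM in control libraries (4.11 ± 0.06). None of these groups overlapped.

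Weibel-Palade genes moved both ways, with VWF, SELP, EDN1 and IGFBP7 higher among the cargo and ANGPT2 lower. Of 25 listed genes 11 were called higher and 7 lower (median 0.03). Von Willebrand factor (VWF), the granule's main cargo, had 279, 263 and 268 CPM in irradiated libraries, against 92.5 and 94.5 CPM in control libraries (1.53 ± 0.03). Endothelin (EDN1), a vasoconstrictor that is also stored there, had 319, 322 and 322 CPM in irradiated libraries, against 135 and 155 CPM in control libraries (1.15 ± 0.04). IGFBP7, another stored protein, changed by 1.18 ± 0.03. ANGPT2, a stored angiopoietin that loosens vessels, had 16.4, 16.1 and 16.4 CPM in irradiated libraries, against 25.9 and 25.9 CPM in control libraries (-0.67 ± 0.05). MYO5A, a motor of granule transport, changed by -0.63 ± 0.03.

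Of 31 clotting and fibrinolysis genes 10 were called higher and 17 lower, against 19.7% and 19.9% of all genes, with a median of -0.21. The lowered genes included inhibitors of clotting and activators of fibrin breakdown. ADTRP, an androgen-dependent regulator of the tissue factor pathway inhibitor, had 2.23, 2.19 and 2.37 CPM in irradiated libraries, against 19.95 and 20.5 CPM in control libraries (-3.16 ± 0.07). Tissue plasminogen activator (PLAT) had 42.7, 42.8 and 44.6 CPM in irradiated libraries, against 217 and 195 CPM in control libraries (-2.25 ± 0.04). TFPI2, a protease inhibitor of the same family as TFPI, changed by -1.43 ± 0.06. Thrombomodulin (THBD), the cofactor that turns thrombin to anticoagulant use, had 15.3, 15.02 and 15.3 CPM in irradiated libraries, against 25.6 and 26.5 CPM in control libraries (-0.78 ± 0.05), a call that was lost in the fit of all 37 libraries. NT5E, the ecto-enzyme CD73 that makes adenosine, had 102, 103 and 112 CPM in irradiated libraries, against 243 and 237 CPM in control libraries (-1.18 ± 0.04). ADAMTS18, a secreted metalloprotease, changed by -1.95 ± 0.04.

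On the higher side stood VWF, the thrombin receptor F2R and the vitamin K-dependent protein GAS6. F2R had 271, 268 and 264 CPM in irradiated libraries, against 127 and 132 CPM in control libraries (1.05 ± 0.03). GAS6, a ligand of the TAM receptor kinases, had 114, 105 and 113 CPM in irradiated libraries, against 49.1 and 45.1 CPM in control libraries (1.23 ± 0.04). Factor VIII (F8), which circulates bound to von Willebrand factor, changed by 0.52 ± 0.10. Tissue factor (F3) was called lower (-0.69 ± 0.20), but its groups overlapped, with 1.95, 1.73 and 3.22 CPM in irradiated libraries, against 4.42 and 2.999 CPM in control libraries. That call was lost without control 1 and without irradiated 1, with DESeq2 and in the fit of all 37 libraries.

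**Figure D2:**
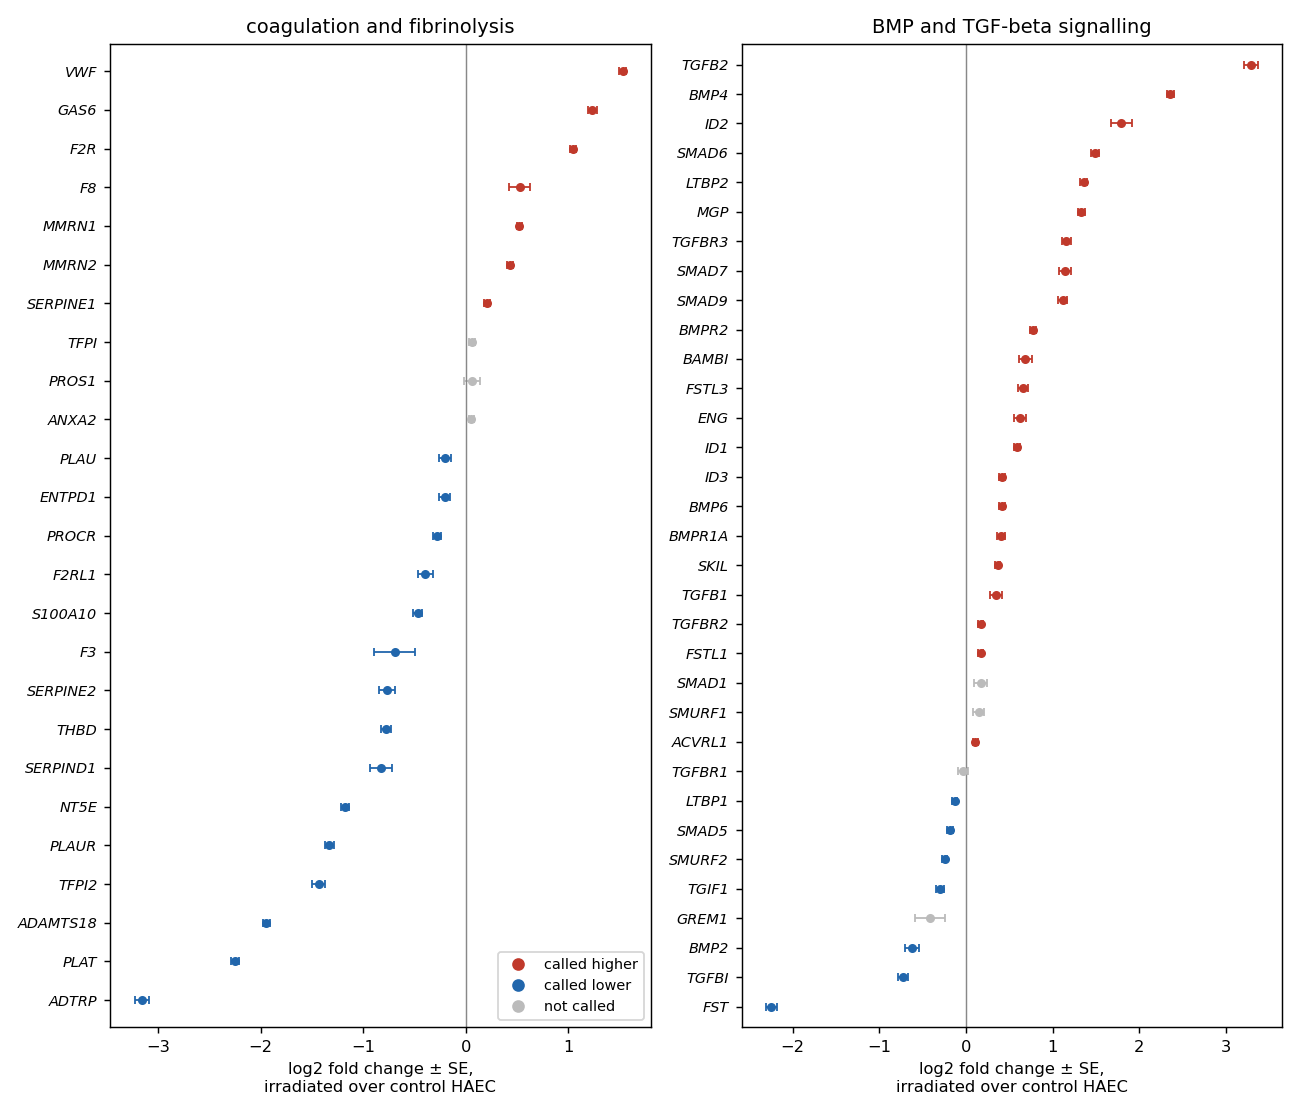
Log2 fold change of irradiated over control HAEC with its standard error, for members of the coagulation list (left) and of the BMP and TGF-beta list (right) that have an average log2 CPM of at least 1. Called genes are red (higher) or blue (lower). ADTRP, PLAT and ADAMTS18 lie lowest on the left, and TGFB2 and BMP4 lie highest on the right, where FST lies lowest.

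Of 41 BMP and TGF-beta genes 25 were called higher and 9 lower, against 19.7% and 19.9% of all genes, with a median of 0.41. Among the ligands, TGFB2 had 26.1, 26.97 and 26.7 CPM in irradiated libraries, against 2.99 and 2.35 CPM in control libraries (3.29 ± 0.08). BMP4, which flow and inflammation regulate in aortic endothelium, had 104, 101 and 104 CPM in irradiated libraries, against 20.3 and 19.99 CPM in control libraries (2.36 ± 0.04). BMP2 went the other way, at 8.32, 6.92 and 7.63 CPM in irradiated libraries, against 12.3 and 11.1 CPM in control libraries (-0.62 ± 0.08). Neither ligand's groups overlapped.

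The extracellular binders of these ligands diverged. Follistatin (FST), which traps activins, had 5.79, 5.27 and 5.53 CPM in irradiated libraries, against 26.2 and 26.3 CPM in control libraries (-2.25 ± 0.06). BMPER, an endothelial BMP modulator singled out after its values were seen, had 1.99, 1.46 and 1.46 CPM in irradiated libraries, against 0.0856 and 0.0402 CPM in control libraries (4.59 ± 0.31, and 5.33 without control 1). MGP, a matrix protein that binds BMPs and limits calcification, had 134, 133 and 126 CPM in irradiated libraries, against 51.3 and 52.9 CPM in control libraries (1.33 ± 0.04). Genes downstream of the receptors also moved both ways. The inhibitory SMAD6, a target of BMP signals, had 102, 92.7 and 97.9 CPM in irradiated libraries, against 35.7 and 33.5 CPM in control libraries (1.49 ± 0.04). ID2, an inhibitor of helix-loop-helix factors, had 7.29, 6.64 and 7.91 CPM in irradiated libraries, against 2.34 and 1.80 CPM in control libraries (1.80 ± 0.12). TGFBI, a matrix protein named for its induction by TGF-beta, changed by -0.73 ± 0.05.

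Genes of arterial identity and cell contact included the highest of the fold changes ranked above. The connexin GJA4 (ENSG00000187513), which couples arterial endothelial cells, had 6.49, 6.38 and 6.39 CPM in irradiated libraries, against 0.145 and 0.101 CPM in control libraries (5.65 ± 0.17). The ephrin EFNB2, which marks arteries, had 13.1, 13.4 and 13.3 CPM in irradiated libraries, against 3.42 and 3.35 CPM in control libraries (1.97 ± 0.08). EFNA1, a ligand of EphA receptors that TNF induces, changed by 1.52 ± 0.06. Of 14 ephrin and Eph genes 10 were called higher and 3 lower (median 0.50), and of 25 genes of arterial and venous identity 14 were called higher and 6 lower (median 0.39).

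Of 9 connexins and pannexins 3 were called higher and 2 lower, with 1 lower without control 1. Notch genes gave 15 of 25 called higher and 5 lower, with 3 lower without control 1 (median 0.31). HES1, a direct Notch target, had 14.6, 12.1 and 12.8 CPM in irradiated libraries, against 6.61 and 8.44 CPM in control libraries (0.82 ± 0.09), and HES4, of the same family, changed by 0.87 ± 0.14. MAML2, a coactivator, had 17.96, 17.9 and 17.97 CPM in irradiated libraries, against 10.7 and 10.2 CPM in control libraries (0.78 ± 0.06). MFNG, a glycosyltransferase that tunes Notch to its ligands, had 129.9, 124 and 129.7 CPM in irradiated libraries, against 196 and 190.0 CPM in control libraries (-0.59 ± 0.03), and HEY1, the arterial target singled out after its values were seen, had 0.298, 0.185 and 0.311 CPM in irradiated libraries, against 0.652 and 0.563 CPM in control libraries (-1.20 ± 0.31). The calls of MFNG, HEY1 and HEY2 were lost in the fit of all 37 libraries. HEY2, of the same family as HEY1, changed by -0.29 ± 0.08. NOTCH2 (-0.09 ± 0.04) and RBPJ (-0.10 ± 0.04), a receptor and its DNA-binding partner, were called lower by small steps, and every fit without 1 library lost both calls.

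Guidance and angiogenic genes showed a mixed picture. Semaphorin, plexin, netrin and Slit genes gave 19 of 37 called higher and 4 lower (median 0.24). SEMA3D, which repels endothelial cells, had 39.4, 41.5 and 43.1 CPM in irradiated libraries, against 16.8 and 15.5 CPM in control libraries (1.35 ± 0.05). Its relative SEMA3A had 2.39, 2.57 and 2.86 CPM in irradiated libraries, against 5.37 and 4.57 CPM in control libraries (-0.93 ± 0.11). SEMA3G, made by arterial endothelium and singled out after its values were seen, had 1.61, 1.63 and 1.81 CPM in irradiated libraries, against 0.0987 and 0.0604 CPM in control libraries (4.33 ± 0.27). PLXND1, the receptor that also senses flow, changed by 0.99 ± 0.05.

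In the VEGF, tip cell and angiopoietin list 16 of 36 were called higher and 11 lower (median 0.05). Apelin (APLN), a peptide of sprouting tip cells, had 114, 106 and 119 CPM in irradiated libraries, against 438 and 447 CPM in control libraries (-1.97 ± 0.04). ANGPT1, which steadies vessels through TIE2, had 5.70, 6.23 and 6.07 CPM in irradiated libraries, against 3.01 and 2.61 CPM in control libraries (1.09 ± 0.10). PDGFB, which recruits pericytes, changed by 0.85 ± 0.05. KLF2 and shear-responsive genes gave 9 of 25 called higher and 5 lower. KLF2 itself, the factor that laminar flow induces, had 8.24, 7.13 and 8.14 CPM in irradiated libraries, against 10.7 and 9.87 CPM in control libraries (-0.40 ± 0.08), a call lost in the fit of all 37 libraries. CYP1A1, a flow- and dioxin-responsive enzyme, changed by -1.71 ± 0.12.

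Genes that set vessel tone moved in both directions, with 11 of 32 called higher and 9 lower (median 0.02). Endothelin rose, as given above, and angiotensin-converting enzyme (ACE) had 6.14, 4.82 and 4.93 CPM in irradiated libraries, against 2.43 and 2.45 CPM in control libraries (1.12 ± 0.12). PDE3A, a phosphodiesterase that degrades cyclic AMP, changed by -0.87 ± 0.04. Nitric oxide synthase (NOS3) had 54.04, 46.4 and 48.7 CPM in irradiated libraries, against 59.7 and 59.98 CPM in control libraries (-0.27 ± 0.05), a call lost in the fit of all 37 libraries.

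The prostaglandin list had the highest median of the endothelial lists (0.51), with 13 of 30 called higher and 7 lower. Prostacyclin synthase (PTGIS), which makes the vasodilator prostacyclin, had 4.42, 4.45 and 4.98 CPM in irradiated libraries, against 0.724 and 0.936 CPM in control libraries (2.50 ± 0.14). The transporter SLCO2A1, which takes prostaglandins up for breakdown, had 6.89, 6.09 and 6.69 CPM in irradiated libraries, against 0.829 and 0.916 CPM in control libraries (2.92 ± 0.12). PLA2G4C, a phospholipase that frees fatty acids from membranes, changed by 1.77 ± 0.07. The cyclooxygenase PTGS1, upstream of PTGIS, had 34.99, 35.2 and 34.7 CPM in irradiated libraries, against 75.02 and 75.05 CPM in control libraries (-1.10 ± 0.04). The receptor PTGER4 changed by -0.62 ± 0.04. The aldo-keto reductase AKR1C1, which converts prostaglandins and steroids, had 69.99, 70.2 and 65.9 CPM in irradiated libraries, against 22.97 and 20.6 CPM in control libraries (1.65 ± 0.05). Its relatives AKR1C2 (1.16 ± 0.07) and AKR1C3 (1.07 ± 0.04) were called higher as well, and because these paralogs are very similar their reads may be split between them.

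**Figure D3:**
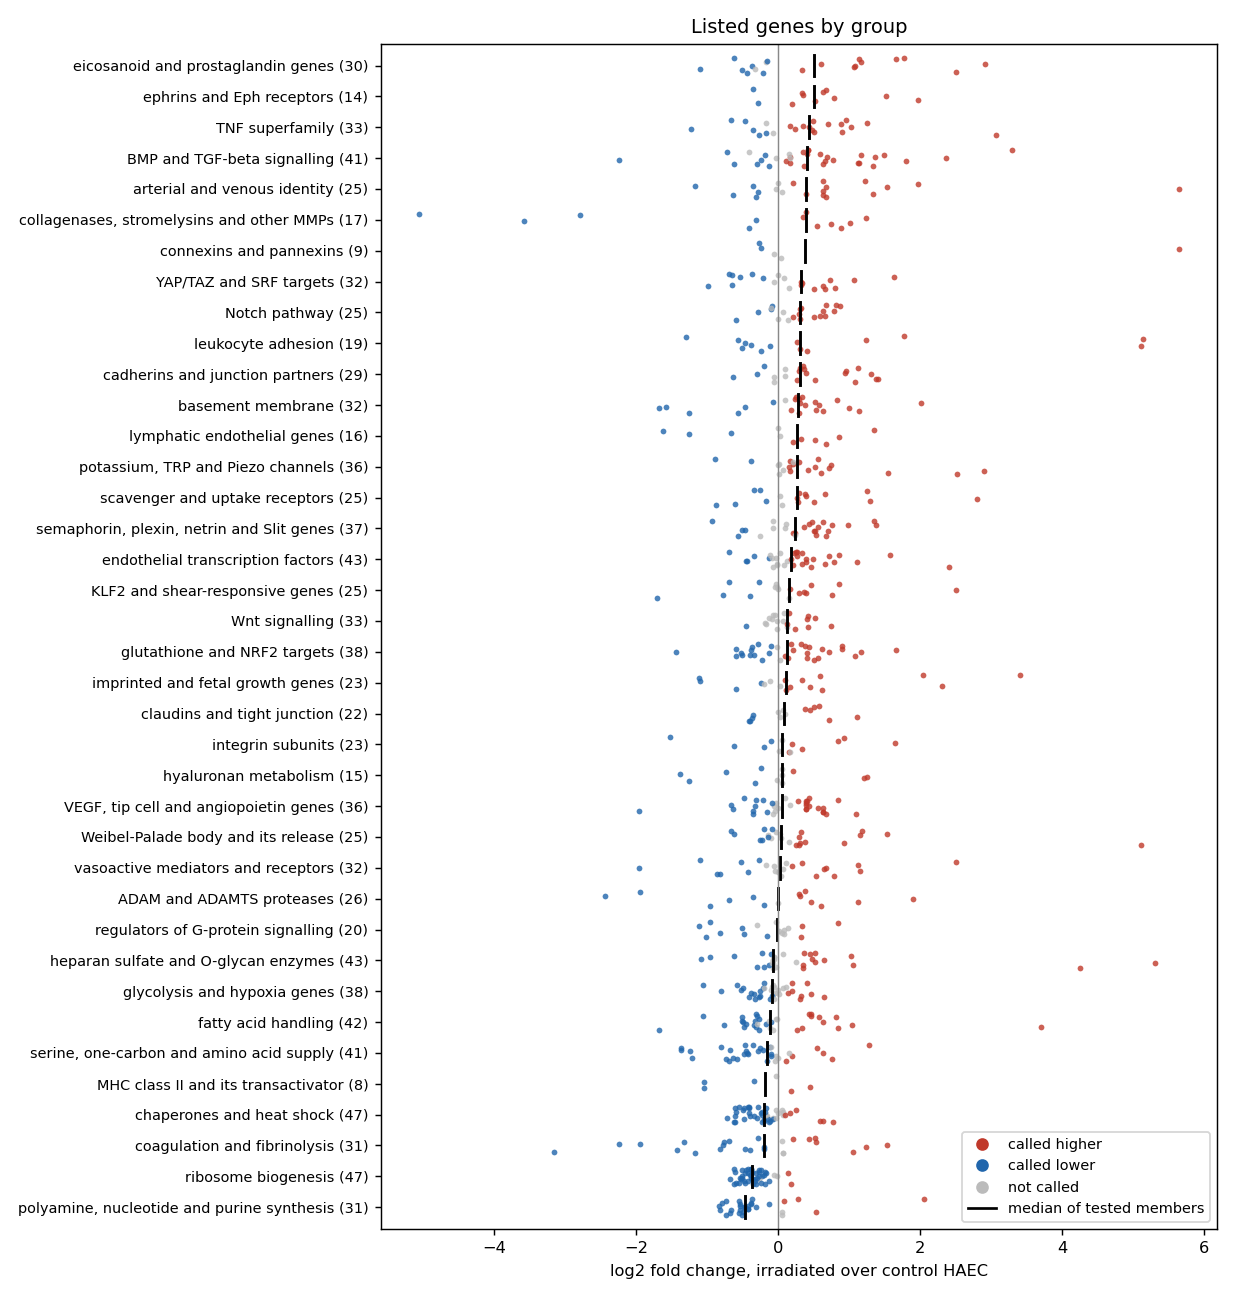
Log2 fold change of irradiated over control HAEC for members of 38 gene lists with an average log2 CPM of at least 1, 1 dot per gene, with the median over all tested members as a black bar and the number tested in brackets (not every member is drawn). The prostaglandin list has the highest median and the polyamine and nucleotide list the lowest. The point at -5.06 in the metalloprotease row is MMP3, whose control level rests on control 1.

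The sugar-modifying enzymes SULF1 and GALNT15 stood far above their controls. SULF1 (ENSG00000137573), a sulfatase that trims heparan sulfate and so alters growth factor binding, had 40.02, 37.9 and 38.5 CPM in irradiated libraries, against 0.908 and 1.08 CPM in control libraries (5.31 ± 0.08). GALNT15, a starter of O-glycan chains, had 27.4, 27.6 and 27.9 CPM in irradiated libraries, against 1.40 and 1.54 CPM in control libraries (4.25 ± 0.07). The list they belong to was split, with 14 of 43 called higher and 11 lower (median -0.08). Heparanase (HPSE), which cuts heparan sulfate, had 15.2, 13.3 and 13.8 CPM in irradiated libraries, against 27.1 and 27.6 CPM in control libraries (-0.96 ± 0.06). GALNT6, another O-glycan starter, changed by -1.09 ± 0.04.

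MMP1 (ENSG00000196611), which cuts fibrillar collagen, had 399, 429 and 435 CPM in irradiated libraries, against 5093 and 5005 CPM in control libraries (-3.58 ± 0.03). WTAPP1, a transcribed pseudogene on the opposite strand of MMP1 and MMP3, had 87.2, 95.4 and 94.7 CPM in irradiated libraries, against 1115 and 1111 CPM in control libraries (-3.59 ± 0.04). MMP10, a stromelysin of the same gene cluster on chromosome 11, had 2.32, 1.89 and 2.68 CPM in irradiated libraries, against 16.9 and 14.9 CPM in control libraries (-2.79 ± 0.10). The list they belong to had 8 of 17 called higher and 6 lower, with a median of 0.39, and its stromelysin MMP3, described with control 1 below, was called lower on the strength of that library. On the higher side the membrane protease MMP15 changed by 1.23 ± 0.12 and the inhibitor TIMP2 by 0.89 ± 0.05. ADAMTS9, which cleaves proteoglycans, had 29.9, 27.9 and 28.9 CPM in irradiated libraries, against 157 and 158 CPM in control libraries (-2.45 ± 0.04). Mesotrypsin (PRSS3) had 3.52, 3.50 and 3.51 CPM in irradiated libraries, against 27.8 and 26.8 CPM in control libraries (-2.96 ± 0.06).

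Basement membrane genes gave 18 of 32 called higher and 7 lower (median 0.28). LAMB3, a laminin chain, had 16.6, 16.3 and 16.8 CPM in irradiated libraries, against 49.8 and 49.004 CPM in control libraries (-1.58 ± 0.04), and LAMA3, another laminin chain, changed by -1.26 ± 0.07. The integrin chain ITGA6, part of a receptor for laminins, had 144, 157 and 154 CPM in irradiated libraries, against 437 and 437 CPM in control libraries (-1.53 ± 0.03). NID2, which links laminin to collagen, changed by -1.68 ± 0.07. Higher instead were the heparan sulfate proteoglycans HSPG2 (perlecan, 1.00 ± 0.07) and AGRN (agrin, 1.14 ± 0.06). Perlecan had 925, 703 and 740.0 CPM in irradiated libraries, against 388 and 403 CPM in control libraries, and irradiated 1 was the highest.

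Of 23 integrin chains 7 were called higher and 5 lower, against 19.7% and 19.9% of all genes, with 3 lower without control 1. ITGB8, which with ITGAV binds latent TGF-beta, had 39.5, 41.7 and 44.9 CPM in irradiated libraries, against 14.3 and 12.5 CPM in control libraries (1.65 ± 0.06), and its partner ITGAV changed by 0.93 ± 0.03. Cadherins and their partners gave 17 of 29 called higher and 3 lower (median 0.30). CDH11, a cadherin of mesenchyme, had 246, 238 and 246 CPM in irradiated libraries, against 100.1 and 97.3 CPM in control libraries (1.30 ± 0.03), and the protocadherin PCDH10 changed by 1.40 ± 0.05. Tight-junction genes gave 9 of 22 called higher and 5 lower, among them occludin (OCLN, 1.11 ± 0.14). In the hyaluronan list, with 4 of 15 called higher and 5 lower, the receptor CD44 had 67.9, 69.1 and 70.5 CPM in irradiated libraries, against 118 and 112 CPM in control libraries (-0.73 ± 0.04). Versican (VCAN), a hyaluronan-binding proteoglycan, had 4.32, 4.45 and 5.19 CPM in irradiated libraries, against 2.82 and 1.08 CPM in control libraries (1.20 ± 0.22), and its fold change was 2.12 without control 1.

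The cholesterol exporter ABCA1 had 13.6, 14.6 and 13.5 CPM in irradiated libraries, against 1.14 and 0.352 CPM in control libraries (4.10 ± 0.19), and its fold change was 5.31 without control 1. The fatty acid carrier FABP4, a gene of capillary endothelium, had 4.36, 5.65 and 4.26 CPM in irradiated libraries, against 0.428 and 0.282 CPM in control libraries (3.69 ± 0.19). The fatty acid receptor CD36, singled out after its values were seen, had 1.33, 1.46 and 1.41 CPM in irradiated libraries, against 0.138 and 0.0805 CPM in control libraries (3.61 ± 0.27). In the list for fatty acid handling 13 of 42 were called higher and 18 lower (median -0.12). ELOVL6, which lengthens fatty acids, changed by -1.06 ± 0.06, and G0S2, which blocks fat breakdown, had 14.3, 14.8 and 14.4 CPM in irradiated libraries, against 46.3 and 46.6 CPM in control libraries (-1.68 ± 0.04).

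Scavenger and uptake receptors gave 13 of 25 called higher and 6 lower (median 0.26). ACKR3, a receptor that removes CXCL12, had 4.63, 4.85 and 4.51 CPM in irradiated libraries, against 0.790 and 0.503 CPM in control libraries (2.81 ± 0.15). The membrane chemokine CXCL16, which also binds oxidised lipoprotein, changed by 1.29 ± 0.11. ACKR1, the venular chemokine receptor singled out after its values were seen, had 0.893, 0.688 and 0.763 CPM in irradiated libraries, against 0.0526 and 0.0402 CPM in control libraries (4.02 ± 0.37). It overlaps its neighbour CADM3 on the same strand. Class II HLA genes gave 3 of 8 called higher and 3 lower, and HLA-DPB1, which presents peptides to T cells, had 5.32, 5.43 and 5.15 CPM in irradiated libraries, against 10.5 and 11.4 CPM in control libraries (-1.05 ± 0.08).

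Of 47 ribosome biogenesis genes 2 were called higher (1 without control 1) and 42 lower, with a median of -0.38, and of 47 chaperones 6 were called higher and 30 lower (median -0.21). FBL, the methyltransferase of the nucleolus, had 87.3, 93.1 and 88.5 CPM in irradiated libraries, against 139 and 135 CPM in control libraries (-0.61 ± 0.04). The polyamine and nucleotide list had the lowest median (-0.47), with 4 of 31 called higher and 24 lower. ODC1, which starts polyamine synthesis, had 184, 198 and 190.3 CPM in irradiated libraries, against 330.2 and 330.0 CPM in control libraries (-0.79 ± 0.03). AMD1, which supplies the aminopropyl groups, changed by -0.73 ± 0.04. SAT1, which acetylates polyamines for export, rose, with 176, 183 and 175 CPM in irradiated libraries, against 44.3 and 41.8 CPM in control libraries (2.05 ± 0.04). The enzymes of polyamine synthesis named here were thus lower and the catabolic enzyme higher.

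Genes for serine, one-carbon units and amino acid supply gave 8 of 41 called higher and 24 lower (median -0.16). PHGDH, the first enzyme of serine synthesis, had 8.74, 8.37 and 9.15 CPM in irradiated libraries, against 21.1 and 19.5 CPM in control libraries (-1.22 ± 0.06). PSAT1, the next enzyme, had 7.35, 7.79 and 7.04 CPM in irradiated libraries, against 18.6 and 19.6 CPM in control libraries (-1.37 ± 0.06). Asparagine synthetase (ASNS) changed by -1.24 ± 0.07 and the glutamine carrier SLC38A5 by -1.37 ± 0.05. The neutral amino acid carrier SLC38A2 rose, at 932, 953 and 964 CPM in irradiated libraries, against 556 and 564 CPM in control libraries (0.76 ± 0.03). In glycolysis and hypoxia genes 8 of 38 were called higher and 16 lower, with hexokinase HK2 at -0.80 ± 0.07 and enolase ENO1 at -0.53 ± 0.02. Glutathione and NRF2 targets gave 19 of 38 called higher and 13 lower, with the iron store FTH1 at 0.90 ± 0.03 and the plasma peroxidase GPX3 at -1.44 ± 0.09.

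Of 32 YAP and SRF targets 14 were called higher and 7 lower. ANKRD1, a YAP target, had 1443, 1516 and 1471 CPM in irradiated libraries, against 479 and 478 CPM in control libraries (1.63 ± 0.03). RHOB, a small GTPase that radiation and stress induce, had 295, 279 and 286 CPM in irradiated libraries, against 101 and 98.2 CPM in control libraries (1.52 ± 0.03). RND3, an atypical small GTPase, changed by 1.45 ± 0.04, and the tropomyosin TPM1 by 1.49 ± 0.03. CCN1 (0.80 ± 0.04) and CCN2 (0.73 ± 0.03), matricellular YAP targets, were called higher too, while FOSL1, an AP-1 subunit, had 6.71, 5.95 and 6.62 CPM in irradiated libraries, against 13.2 and 12.4 CPM in control libraries (-0.99 ± 0.07). ANLN, which scaffolds the cleavage furrow of dividing cells, changed by -1.46 ± 0.03.

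Of 36 channel genes 16 were called higher and 4 lower (median 0.26). The sodium-activated potassium channel KCNT2 had 10.95, 11.3 and 10.8 CPM in irradiated libraries, against 1.62 and 1.29 CPM in control libraries (2.90 ± 0.10). KCNMB4, a subunit of calcium-activated potassium channels, changed by 2.52 ± 0.15, and the calcium release channel ITPR2 by 1.54 ± 0.03. Among endothelial transcription factors 20 of 43 were called higher and 6 lower. SNAI2, a factor of endothelial-to-mesenchymal change, had 4.02, 3.76 and 3.81 CPM in irradiated libraries, against 0.638 and 0.845 CPM in control libraries (2.41 ± 0.15). TWIST1 and TWIST2, of the fibroblast list above, went the other way. TWIST1 had 11.3 to 12.1 CPM in irradiated and 15.5 to 16.2 CPM in control libraries. For TWIST2 the levels were 3.45 to 4.30 CPM in irradiated and 5.22 to 5.26 CPM in control libraries. EPAS1, the hypoxia factor of endothelium, had 184, 169 and 165 CPM in irradiated libraries, against 58.1 and 57.5 CPM in control libraries (1.58 ± 0.04). Lymphatic genes gave 7 of 16 called higher and 3 lower (median 0.27). On the higher side FLT4 had 5.43 to 5.51 CPM in irradiated and 3.21 to 3.59 CPM in control libraries. SOX18 had 6.95 to 8.68 CPM in irradiated and 3.79 to 5.02 CPM in control libraries. Reelin (RELN) was lower, at 7.48, 7.01 and 8.17 CPM in irradiated libraries, against 23.4 and 23.5 CPM in control libraries (-1.63 ± 0.06).

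Imprinted and fetal growth genes gave 13 of 23 called higher and 4 lower (median 0.11). The paternally expressed MEST had 42.99, 40.5 and 41.3 CPM in irradiated libraries, against 4.41 and 3.28 CPM in control libraries (3.41 ± 0.08). The long non-coding RNA MEG3 had 7.35, 7.67 and 7.48 CPM in irradiated libraries, against 1.80 and 1.15 CPM in control libraries (2.31 ± 0.13). MEG8, from the same locus, had 3.71, 3.76 and 4.22 CPM in irradiated libraries, against 1.28 and 0.543 CPM in control libraries (2.03 ± 0.20, and 2.85 without control 1). HMGA2, a fetal chromatin factor, changed by -1.11 ± 0.04. Other non-coding genes that stood high were CADM3-AS1 (3.81 ± 0.07), LINC00639 (2.64 ± 0.17) and GASK1B-AS1 (2.17 ± 0.07).

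MGARP, a mitochondrial protein that hypoxia induces, had 50.1, 53.7 and 53.1 CPM in irradiated libraries, against 2.80 and 2.77 CPM in control libraries (4.23 ± 0.06). MYEOV, a gene without an established function, had 0.714, 0.769 and 0.939 CPM in irradiated libraries, against 4.23 and 4.54 CPM in control libraries (-2.43 ± 0.14). RAB38, which guides lysosome-related organelles, changed by -2.38 ± 0.12, and SHISA2, which holds Wnt and FGF receptors back, by -2.29 ± 0.12. Wnt genes gave 13 of 33 called higher and 1 lower, with 0 lower without control 1, and FZD8, a Wnt receptor, changed by 0.74 ± 0.06. Regulators of G-protein signalling gave 4 of 20 called higher, near the 19.7% of all genes, and 7 lower, against 19.9%, with RGS2, which dampens vasoconstrictor receptors, at 5.05, 5.62 and 6.02 CPM in irradiated libraries, against 11.9 and 12.4 CPM in control libraries (-1.12 ± 0.08).

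Control 1 held low counts of genes that are abundant in the WI-38 libraries given mutant HRAS, so calls that rest on it were examined. Of genes with at least 1 CPM in control 1, 3 stood 5 or more times above control 2, namely MMP3, IL1B and EREG, and all 3 were highest in the HRAS group among the 16 groups other than control HAEC. MMP3 had 0.119, 0.150 and 0.191 CPM in irradiated libraries, against 9.96 and 0.151 CPM in control libraries. IL1B had 0.0476, 0.0347 and 0.0652 CPM in irradiated libraries, against 1.5 and 0.141 CPM in control libraries. EREG had 0.220, 0.173 and 0.231 CPM in irradiated libraries, against 1.11 and 0.201 CPM in control libraries. All 3 passed as lower (-5.06 ± 0.78 for MMP3, -4.06 ± 0.62 for IL1B and -1.69 ± 0.45 for EREG), and none passed without control 1, where the values were 0.04, -1.49 and 0.06 with edgeR adjusted p of 0.976, 0.270 and 0.953 in that order.

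Of genes with 100 CPM or more in the HRAS libraries, 19 had under 0.5 CPM in control 2. Since a low value in control 2 chose these genes, their level there is no evidence on control 1. Their median level was 0.278, 0.206 and 0.298 CPM in the irradiated libraries, which the choice did not use, against 0.628 CPM in control 1. Their summed levels lay closer, at 18.7, 19.2 and 19.3 CPM in irradiated libraries, against 22.4 CPM in control 1. ABCA1, with up to 13.7 CPM on this scaling, made up much of the irradiated sums. SEMA7A and CLDN1 also reached a higher level in an irradiated library than in control 1. In control 1 they stood at 0.183% to 0.872% of their HRAS level (median 0.296%). ABCA1 is 1 of the 19.

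Control 1 and control 2 were also compared among genes called lower, whatever their level in the HRAS libraries. Of 4759 genes called lower with an average log2 CPM of at least 1, 7 stood at least 1.5 times higher in control 1 than in control 2, and 2 of these at least 2 times. They were FAT1, IGFBP5, PDGFRA, MMP3, COL6A3, COL3A1 and SNORD46. Without control 1 their log2 fold changes ran from -0.19 (SNORD46) to 0.15 (COL3A1). Since a higher value in control 1 chose these genes, a smaller fall without it follows from the choice. Genes called lower that stood higher in control 2 were not counted. SNORD46, at 5.01 CPM in control 1, had 4.74 CPM in the HRAS libraries. COL6A3, a matrix collagen, had 15.1 CPM in control 1 and 7.05 CPM in control 2, and its fold change was -0.81 with both and -0.13 without control 1. For MMP1 and MMP10 the fold changes without control 1 were -3.56 and -2.68.

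**Figure D4:**
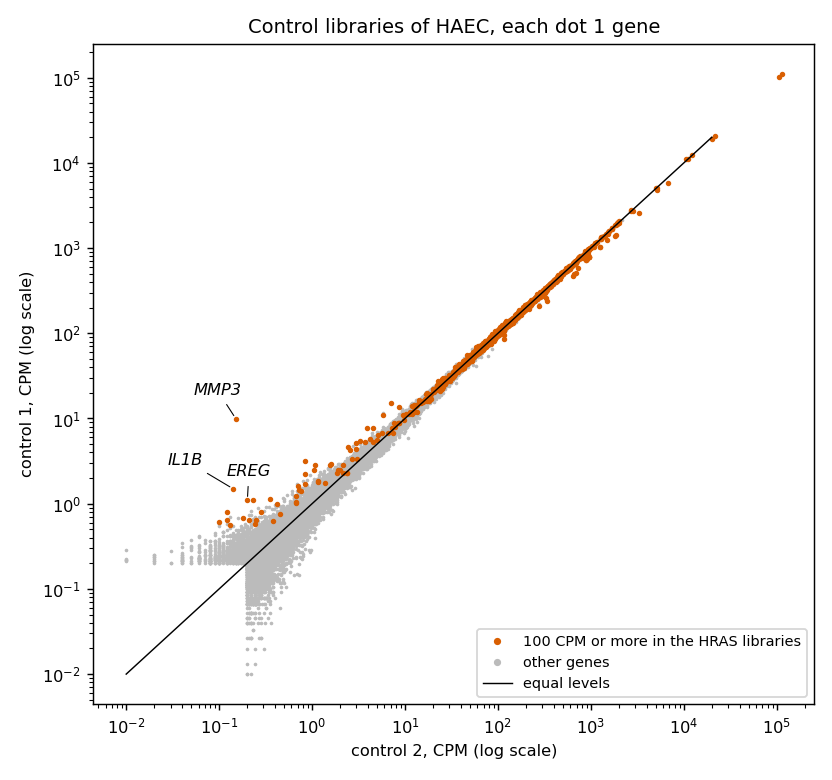
Level of each gene in control 1 against control 2 of HAEC, in CPM on log axes, for genes with at least 0.2 CPM in 1 of them (values under 0.01 are drawn at 0.01). Genes with 100 CPM or more in the HRAS libraries are orange and the line marks equal levels. MMP3, IL1B and EREG lie above the line, at 9.96, 1.5 and 1.11 CPM in control 1.

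The response of HAEC was then set against that of HUVEC in 1 fit of 11 libraries. The difference between the responses was called for 5446 of 30317 genes, 2762 of them above 0 (9.11%) and 2684 below 0 (8.85%). Most genes compared below were named for a large change in HAEC, a choice that favours a larger change there. The selectin and VCAM1 rose in both cell types and more in HAEC. VCAM1 changed by 1.52 in HUVEC (difference 3.63, adjusted p = 4.31e-14) and SELP by 1.06 (4.05, 2.68e-16), while ICAM1 changed by 1.85 there, and its difference of -0.08 did not pass (adjusted p = 0.769). GALNT15 changed by 3.52 in HUVEC and the difference was 0.73 (adjusted p = 0.00211).

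For GJA4 and FABP4 the 2 cell types moved in opposite directions. GJA4 averaged 1.62 ± 0.178 CPM in irradiated HUVEC and 3.64 ± 0.237 CPM in control HUVEC (SD, n = 3 each), a change of -1.17, and the difference was 6.83 (edgeR adjusted p = 2.18e-18). FABP4 averaged 2.63 ± 0.1999 CPM in irradiated HUVEC and 4.97 ± 0.159 CPM in control HUVEC (SD, n = 3 each), a change of -0.92, and the difference was 4.62 (edgeR adjusted p = 3.86e-15). EFNB2 changed by -0.07 in HUVEC (adjusted p = 0.266) and differed by 2.04 (adjusted p = 2.68e-16). PLAT changed by -0.61 in HUVEC (difference -1.63, adjusted p = 1.34e-17) and ADTRP by -0.80 (-2.35, 1.44e-16), so both were called lower in both cell types and fell further in HAEC. TFPI2 changed by -1.72 in HUVEC, and there the fall was the larger one (difference 0.29, adjusted p = 0.00513). ODC1 (-0.81 in HUVEC, difference 0.03, adjusted p = 0.8) and AMD1 (-0.78, 0.05, 0.575) had differences that did not pass the test.

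**Figure D5:**
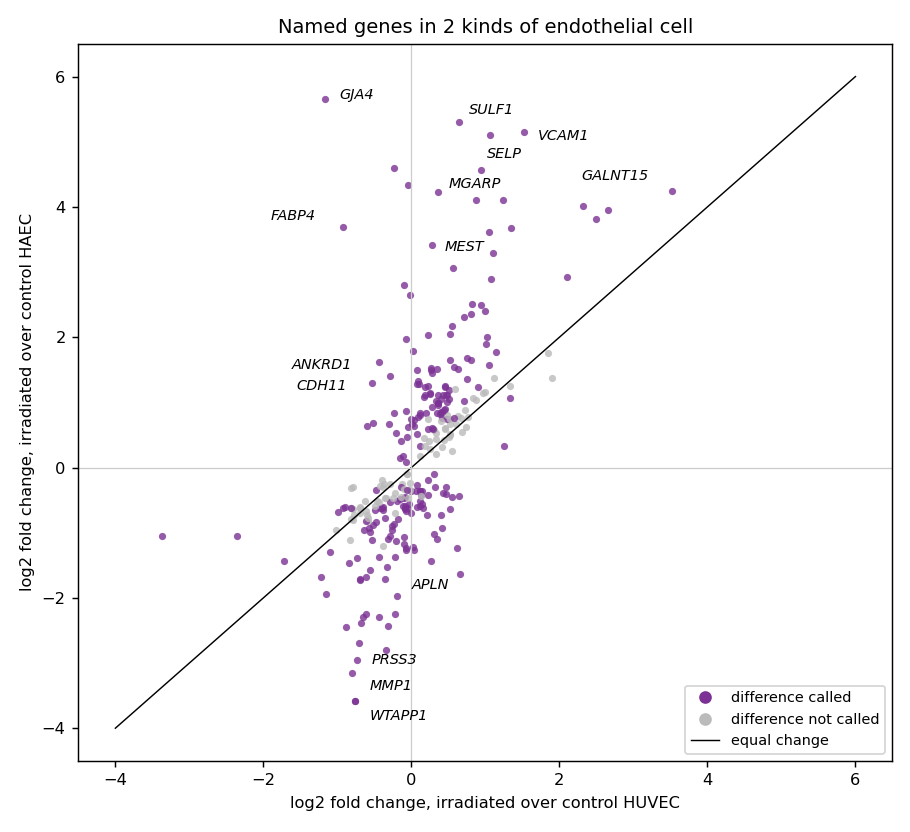
Log2 fold change of irradiated over control HAEC (vertical) against that of HUVEC (horizontal) for named genes, without the 3 that rest on control 1. Purple marks genes whose difference between the cell types was called, and the line marks equal change. GJA4 and FABP4 lie at the upper left. Most named genes were chosen for a large fold change in HAEC, which by itself favours high points above the line.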

How the data were processed

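RNA was sequenced from 5 HAEC libraries, 6 HUVEC libraries and 26 others (37 in all), from total RNA depleted of ribosomal RNA, as paired reads, per the labels' protocols. The authors deposited raw read counts per gene, made with bcl2fastq, cutadapt, STAR 2.4 and featureCounts on the hg19 build, per the submitters' processing notes. The annotation release and the strand setting are not stated in the sources used. From those counts, R 4.3.3 with edgeR 4.0.16 (TMM scaling, filterByExpr, glmQLFit and glmQLFTest) compared 3 irradiated with 2 control HAEC libraries, with Benjamini-Hochberg adjustment over the 28024 genes kept. The standard error is the absolute log2 fold change over the square root of the F statistic. The responses of HAEC and HUVEC were compared by an interaction contrast in 1 fit of 11 libraries. DESeq2 1.42.0 gave alternatives in scaling and test. Replicates differed beyond sampling noise, with chi-square per degree of freedom from 7.96 to 12.8. On simulated counts for this comparison, over 27320 genes, 72.2% of 2-fold and 85% of 4-fold changes were recovered, and 10.9% of calls were of unchanged genes. In that simulation only 97 tested genes had a 2-fold and 100 a 4-fold change, far fewer than were called in the data. Both rates depend on the share of changed genes, so they do not carry over to the calls above.

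The gene lists and members were chosen with earlier results of these data known. Named genes are VCAM1, SELP, SULF1 and MMP1, then up to 4 called members per list and direction (2 in marker lists) with the largest fold change and a mean log2 CPM of 1 or more. To these come the 12 highest and 12 lowest genes called in every fit with 1 library left out, the 5 highest and 5 lowest non-coding genes, genes with 5 times more CPM in control 1 than in control 2 and at least 1 CPM, and, of these, the 5 per side with the smallest p in the difference from HUVEC. The text names part of them, and a few items are not reported here. SELE, SEMA3G, BMPER, CD36, ACKR1 and HEY1, and others given with a value outside that rule, were chosen after their values were seen. Gene names and overlaps came from GENCODE and RefSeq tables by gene identifier. Genes whose transcripts share at least 50% of their 31-base stretches with another gene were marked as uncertain.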

Additional observations from a re-analysis of the deposited data

Results flagged for a closer look

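The genes below are from the 5 per side with the smallest adjusted p in the difference. They were taken among the named genes, most of which were chosen for a large change in HAEC. By the interaction test they responded differently in HAEC and HUVEC, and each value is HAEC minus HUVEC on the log2 scale. On the higher side, SULF1 differed by 4.68 (fold changes 5.31 ± 0.08 in HAEC and 0.64 in HUVEC). MGARP, a mitochondrial protein, differed by 3.87 (4.23 ± 0.06 in HAEC and 0.36 in HUVEC). The imprinted gene MEST differed by 3.14 (3.41 ± 0.08 in HAEC and 0.28 in HUVEC). ANKRD1 differed by 2.07 (1.63 ± 0.03 in HAEC and -0.44 in HUVEC), and the cadherin CDH11 by 1.83 (1.30 ± 0.03 in HAEC and -0.53 in HUVEC).

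On the lower side, MMP1 differed by -2.81 (-3.58 ± 0.03 in HAEC and -0.77 in HUVEC), and WTAPP1, which overlaps it, by -2.82 (-3.59 ± 0.04 in HAEC and -0.76 in HUVEC). PRSS3 differed by -2.22 (-2.96 ± 0.06 in HAEC and -0.74 in HUVEC), and apelin (APLN) by -1.77 (-1.97 ± 0.04 in HAEC and -0.19 in HUVEC). The adjusted p of the difference ran from 9.94e-24 for MMP1 to 5.11e-18 for PRSS3 (edgeR).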

How the results depend on the processing

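Counts of calls were within 1.5 times the values given under DESeq2's size factors, DESeq2's Wald test, a joint fit with HUVEC, and with low counts kept. The fit of all 37 libraries was the exception, with 2315 genes called higher and 1627 lower. Leaving out 1 library at a time gave 4755 to 5265 genes higher and 4758 to 5209 lower, 1185 to 1459 higher and 872 to 894 lower by at least 2-fold, and 4526 to 5283 with a called difference from HUVEC. The replicate block gave 4657 genes higher and 4840 lower, with 1152 and 828 by at least 2-fold, and 4192 differences from HUVEC. Only 2 replicate numbers are shared and the labels do not say that they pair samples, so the numbers are not taken as pairs. Deviations of same-numbered libraries correlated weakly (-0.003 and 0.03). With 2 controls, whose deviations mirror each other, that check can neither show nor exclude pairing. Without control 1 the fold changes of MMP3 (0.038), COL3A1 (0.15) and EREG (0.061) changed sign, with ranges over the fits without 1 library of -6.00 to 0.038, -0.85 to 0.15 and -2.40 to 0.061. The cause was not tested. Of 304 named genes with a call, 74 lost it in the fit of all 37 libraries, 10 under the block, 7 with DESeq2's test and 16 without control 1, besides the 3 whose sign changed there. Depth limits the genes under 1 CPM in the controls, such as SELE, whose fold change ran from 3.90 to 5.33 without 1 control.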
